A study of Mus musculus with 9 samples.

Results

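The 4 Hox clusters of the mouse genome were examined as 609 tiles of 100 bp, out of 279699 tiles tested in the whole genome. Tiles were chosen by position and coverage only. They had to lie in HoxA (chr6:52100000-52215000), HoxB (chr11:96050000-96240000), HoxC (chr15:102745000-102875000) or HoxD (chr2:74500000-74610000) of build mm9, and to hold at least 10 methylation calls in every sample. HoxA gave 159 tiles, HoxB 160, HoxC 133 and HoxD 157. In all, 1115 tiles of these intervals held at least 1 call in some sample. Tiles near the limit had mean differences between the stages of -10.98 percentage points for the 38 tiles whose lowest sample had 10 to 12 calls, and -13.5 for the 50 tiles whose lowest sample had 7 to 9.

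The assay was reduced representation bisulfite sequencing (RRBS), which sequences bisulfite-treated MspI fragments of the genome, so that a methylated cytosine still reads as C. Fibroblasts (label TT) had been grown out of tail tips of adult male mice and cultured to confluence. Nuclear transfer embryos, here NT embryos (label NTZy14), had been made by placing the nuclei of such donor fibroblasts into enucleated C57/B6 oocytes, which were activated with strontium chloride in the presence of cytochalasin B and kept in KSOM medium. Each stage had 4 samples. Samples 1 and 2 bore the strain label BDF1-CAST and samples 3 and 4 the label X1. The sources used here do not say which embryo age NTZy14 denotes, which cross X1 is, or how many embryos or animals went into a sample. Values below follow the order of samples 1 to 4. A difference is the NT embryo mean minus the fibroblast mean, in percentage points.

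Hox genes encode homeodomain transcription factors that give cells their position along the head-to-tail axis of the embryo. Within a cluster the genes lie in the order in which they are used along that axis, and Polycomb proteins keep them silent where they are not used. Their CpG-rich promoters are mostly free of DNA methylation, and cultured fibroblasts keep a Hox expression pattern that reflects the body site they came from. No RNA was measured here.

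The promoters of 4 members show what the values rest on. Each sequence below is the 250 bases before a transcription start, 5′ to 3′, from RefSeq (GRCm38.p6), and capitals mark the CpGs that had calls in the deposited data. Hoxa5, Hoxa6 and Hoxd12 are shown because they were the placed promoters with the highest methylation in fibroblasts, and Hoxd11 as a neighbour of Hoxd12 that was nearly free of methylation in both stages. Each was placed on mm9 by the spacing of its CpGs, over 300 bases around the start. Hoxa5 (minus strand, chr6:52154586-52154835) matched at 23 of 29 CpGs, and Hoxa6 (minus strand, chr6:52158671-52158920) at 23 of 26. Hoxd12 (plus strand, chr2:74512819-74513068) matched at 13 of 13, and Hoxd11 (plus strand, chr2:74520129-74520378) at 24 of 25. The next best position in each cluster matched at no more than 4 CpGs for any of the 11 Hox promoters that could be placed.
Hoxa5: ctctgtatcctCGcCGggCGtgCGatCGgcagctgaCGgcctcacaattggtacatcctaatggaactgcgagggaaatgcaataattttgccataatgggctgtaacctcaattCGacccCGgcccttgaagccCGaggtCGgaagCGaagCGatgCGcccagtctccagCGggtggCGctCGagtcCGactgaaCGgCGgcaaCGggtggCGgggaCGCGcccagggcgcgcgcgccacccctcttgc
Hoxa6: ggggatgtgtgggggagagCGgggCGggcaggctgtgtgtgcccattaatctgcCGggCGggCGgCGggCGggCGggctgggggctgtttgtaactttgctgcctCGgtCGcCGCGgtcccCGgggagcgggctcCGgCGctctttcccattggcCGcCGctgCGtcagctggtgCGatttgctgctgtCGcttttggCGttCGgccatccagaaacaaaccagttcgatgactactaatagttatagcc
Hoxd12: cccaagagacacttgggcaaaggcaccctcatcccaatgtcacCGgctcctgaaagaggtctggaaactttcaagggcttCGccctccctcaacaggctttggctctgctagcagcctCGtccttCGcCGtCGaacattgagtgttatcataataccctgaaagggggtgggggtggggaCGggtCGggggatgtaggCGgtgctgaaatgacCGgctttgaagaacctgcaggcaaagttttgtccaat
Hoxd11: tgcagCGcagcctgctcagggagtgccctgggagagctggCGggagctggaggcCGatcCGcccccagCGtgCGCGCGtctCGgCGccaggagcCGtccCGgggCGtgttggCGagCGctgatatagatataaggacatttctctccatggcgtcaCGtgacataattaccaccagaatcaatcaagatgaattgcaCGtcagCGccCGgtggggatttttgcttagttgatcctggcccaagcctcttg

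Of the 38 Hox genes in the intervals, 22 had a promoter sequence in the table used and 11 could be placed: Hoxa5, Hoxa6, Hoxa11, Hoxa13, Hoxd13, Hoxd12, Hoxd11, Hoxd10, Hoxd9, Hoxd3 and Hoxd1. These 11 held a median of 25 CpGs in 300 bases, against 7 over the 32851 promoters of the table, of which 26.5% held 20 or more. Placement needed at least 7 matched CpGs, so CpG-poor promoters could not be placed, and this contrast partly follows from that rule. Sequences of Hox genes that could not be placed held 4 to 21 CpGs. The motif searched was CG, which reads the same on both strands and occurs in 94.6% of the promoters. Other genes are named below only for their order along the cluster, as RefSeq gives it.

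Fibroblast Hox tiles were mostly unmethylated, and methylation in NT embryos was lower still. In fibroblasts 470 of the 609 tiles (77.2%) lay under 20%, against 36.7% of all tested tiles. Over all Hox tiles the mean level was 14.5, 12.99, 14.1 and 14.6% in fibroblasts (14.0% ± 0.727, SD, n = 4) and 7.76, 7.84, 10.2 and 9.43% in NT embryos (8.80% ± 1.19). Every NT embryo sample lay below every fibroblast sample. The difference of -5.24 points compared with -6.56 points over all tested tiles, which went from 49.7% ± 1.40 to 43.1% ± 3.13. The median Hox tile differed by -0.932 points, against -2.27 over all tiles, and 395 of 609 Hox tiles (64.9%) were lower in NT embryos, against 72.1% of all tiles.

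HoxC had the largest mean difference among the 4 clusters. Its tiles averaged 19.5, 19.05, 14.6 and 16.8% in fibroblasts (17.5% ± 2.23) and 11.1, 9.14, 6.75 and 6.72% in NT embryos (8.41% ± 2.09), with no overlap of the stages and a difference of -9.09 points. HoxD also kept the stages apart, at 15.6, 13.6, 13.9 and 14.6% in fibroblasts (14.4% ± 0.886) and 11.3, 11.3, 8.55 and 9.31% in NT embryos (10.1% ± 1.39), a difference of -4.29 points. HoxA went from 14.2, 12.1, 16.01 and 15.8% (14.5% ± 1.79) to 4.73, 5.99, 12.8 and 9.83% (8.33% ± 3.67), a difference of -6.21 points with an X1 embryo sample above a BDF1-CAST fibroblast sample. HoxB stood at 9.57, 8.24, 11.97 and 11.4% in fibroblasts (10.3% ± 1.71) and at 4.57, 5.25, 11.9 and 11.4% in NT embryos (8.29% ± 3.92). Its difference was -2.01 points, with -3.999 points in BDF1-CAST and -0.0274 in X1. It was -0.774 and -0.9997 points without embryo samples 1 and 2, and -3.23 and -3.05 without embryo samples 3 and 4. The SD within a stage pools both strains.

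The plot of cluster means by sample shows the same split between strains. In HoxA and HoxB the X1 embryo samples lay above the BDF1-CAST embryo samples, and in HoxC and HoxD they lay below them. Cluster means carry no test, since the clusters were chosen with results known. Weighting single CpGs equally gave smaller differences, of -3.76 points in HoxA, -0.755 in HoxB, -5.20 in HoxC and -2.77 in HoxD. The HoxB difference moved with the strain of the embryo sample left out. It was -0.774 and -0.9997 without BDF1-CAST samples 1 and 2, and -3.23 and -3.05 without X1 samples 3 and 4. These are plain stage means without a strain term, so leaving out a sample also changes the balance of the strains.

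**Figure D1:**
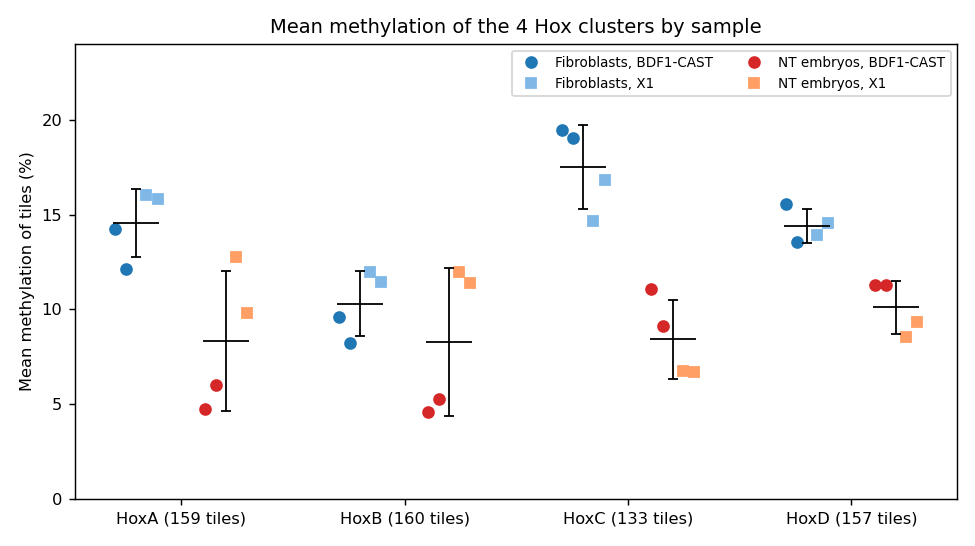
Mean methylation (%) of the tiles of each Hox cluster, 1 point per sample, for fibroblasts (blue) and NT embryos (red and orange), with circles for BDF1-CAST and squares for X1. Horizontal bars and whiskers give the mean and SD of 4 samples. HoxC (17.5 to 8.41%) and HoxD (14.4 to 10.1%) show no overlap of the stages, and HoxA and HoxB do.

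Differences were larger in tiles that were methylated in fibroblasts. Tiles were sorted by their level in the fibroblasts of the other strain, so that the samples that set the class did not measure the change. Hox tiles at 0 to 20% differed by -1.57, -1.05, 0.223 and -0.263 points in NT embryo samples 1 to 4 (-0.666 ± 0.8001, SD, n = 4). At 20 to 60% the change was -15.4, -16.4, -15.7 and -16.8 points (-16.1 ± 0.650), and all tested tiles of that class changed by -6.55 ± 2.79. At 60 to 100% it was -35.5, -37.9, -31.7 and -34.5 points (-34.9 ± 2.56), over 39 tiles classed by BDF1-CAST and 32 classed by X1, and all tested tiles of that class changed by -11.2 ± 2.69. In both upper classes every embryo sample showed a larger loss over Hox tiles than any showed over all tiles. Hox tiles also had more CpGs than the genome at large (median 5 per tile against 3) and were deeper, with median calls of 69 to 85 per embryo sample against 38 to 47. The part of these properties in the difference was not tested.

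**Figure D2:**
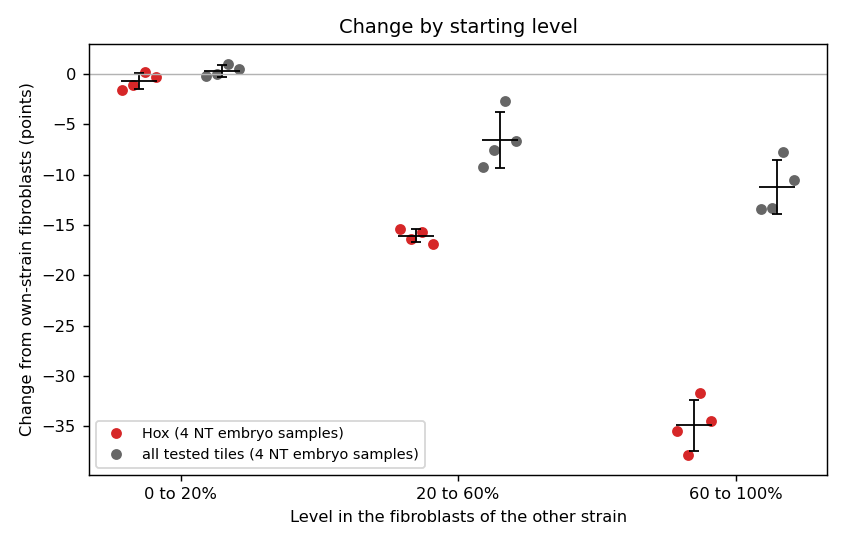
Change in methylation from fibroblasts to NT embryos (percentage points) by the level of a tile in fibroblasts of the other strain, for Hox tiles (red) and all tested tiles (grey). Each point is 1 of 4 NT embryo samples, and bars give the mean and SD. Hox tiles at 60 to 100% lie between -37.9 and -31.7 points, and all tested tiles of that class between -13.4 and -7.77.

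Described by the same fibroblast mean that enters the difference, 458 of the 470 Hox tiles under 20% stayed under 20% in NT embryos, and 71 of the 139 tiles at 20% or more moved under it. Over all tested tiles, 99678 of 102729 stayed under 20% and 6878 of 176970 moved under it. Of the 33 Hox tiles at 60% or more, 7 still lay at 60% or more in NT embryos, against 124241 of 151361 over all tested tiles. None of the 12 HoxC tiles at 60% or more in fibroblasts did.

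Along the clusters, most windows were low in both stages and a few stretches were methylated. Means over windows of 10 kb with at least 3 tiles gave 47 Hox windows, of which 27 lay under 10% in fibroblasts and 14 at 20% or more. In limma on arcsine square root levels, with strain as a term and adjustment over 33899 windows of the genome, 15 of the 47 Hox windows (31.9%) fell and none rose, beside 23.3% of all windows called and 22.5% called lower. HoxC had 5 such windows of 12, HoxA 3 of 10, HoxB 4 of 14 and HoxD 3 of 11. In 11 Hox windows every embryo sample lay below every fibroblast sample (22.4% of all windows did so). Limma called 8 Hox windows without fibroblast sample 1 and 9 without fibroblast sample 3. Over the genome 2747 and 4193 of the 33899 windows were then called, against 7883 with all samples.

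**Figure D3:**
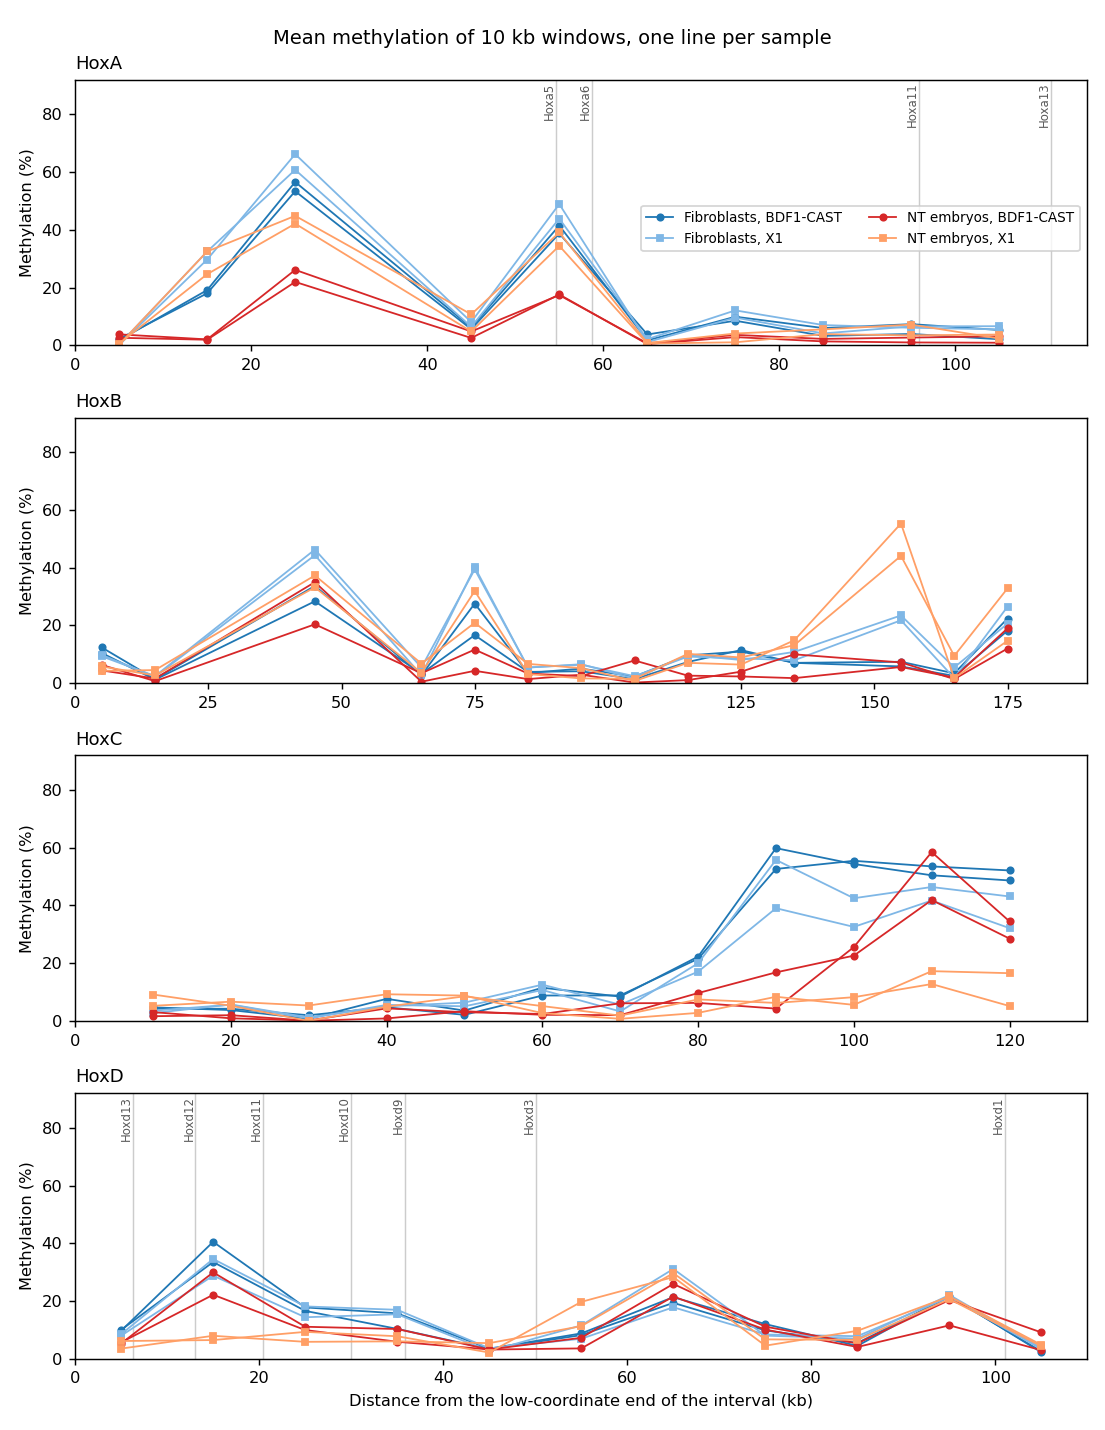
Mean methylation (%) of 10 kb windows along HoxA, HoxB, HoxC and HoxD, against distance from the low-coordinate end of the interval (kb), with 1 line per sample (blue, fibroblasts; red and orange, NT embryos; circles, BDF1-CAST; squares, X1). Grey lines mark placed Hox gene starts. Methylation in fibroblasts rises to 66.2% in HoxA and 59.9% in HoxC, and embryo lines run below fibroblast lines at most of these peaks, while X1 embryos run above in HoxB at 55.3%.

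In HoxC, the windows from the low-coordinate end to chr15:102810000-102819999 had fibroblast means of 1.22 to 10.9%, and those from chr15:102820000-102829999 onwards had means of 20.2 to 51.8%. RefSeq's order places Hoxc13 at the low end and Hoxc4 at the high end. The window chr15:102830000-102839999, with only 3 tiles, read 59.9, 52.7, 39.1 and 55.8% in fibroblasts and 4.29, 16.8, 6.25 and 8.39% in NT embryos, and fell by 42.9 points (limma adjusted p = 0.00241). Next to it, the window chr15:102840000-102849999 with 16 tiles read 54.4, 55.5, 32.6 and 42.5% and 25.6, 22.6, 8.24 and 5.58%, a difference of -30.7 points (limma adjusted p = 0.00136). All embryo samples were below all fibroblast samples in both windows, and X1 samples were the lower ones of each stage in the second. The other HoxC windows that fell were chr15:102860000-102869999 (-22.8 points, adjusted p = 0.0113), chr15:102820000-102829999 (-13.7 points, adjusted p = 0.00276) and chr15:102800000-102809999 (-7.80 points, adjusted p = 0.00931).

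Windows fell in HoxA and HoxD as well. In HoxA, chr6:52120000-52129999 read 56.6, 53.4, 66.2 and 60.8% in fibroblasts and 21.97, 26.1, 44.9 and 42.1% in NT embryos, a difference of -25.5 points (limma adjusted p = 0.00313). The window chr6:52150000-52159999, which holds the Hoxa5 and Hoxa6 starts, went from 41.5, 38.7, 48.9 and 43.9% to 17.6, 17.4, 39.1 and 34.5%, a difference of -16.1 points (adjusted p = 0.0144), with an X1 embryo sample above a BDF1-CAST fibroblast sample. In HoxD, all 3 windows that fell lay side by side near the Hoxd13 end of the cluster. They hold the starts of Hoxd12 (-17.7 points, adjusted p = 0.0199), of Hoxd11 and Hoxd10 (-7.67 points, adjusted p = 0.0149) and of Hoxd9 (-7.10 points, adjusted p = 0.0345). The window with the Hoxd13 start differed by -3.89 points and was not called (adjusted p = 0.0896). Further towards Hoxd3 and Hoxd1, the 7 windows from chr2:74540000-74549999 to chr2:74600000-74609999 differed by -3.17 to 3.94 points and none was called.

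In HoxB 4 windows fell. The window chr11:96120000-96129999 read 27.6, 16.6, 39.4 and 40.2% in fibroblasts and 4.28, 11.6, 31.9 and 20.9% in NT embryos (-13.8 points, limma adjusted p = 0.0274), each strain lower than its own fibroblasts. The others were chr11:96050000-96059999 at -5.27 points, chr11:96160000-96169999 at -3.77 and chr11:96170000-96179999 at -4.34. In the last pair the BDF1-CAST means differed by -6.64 and -8.05 points and the X1 means by -0.891 and -0.633. The called window not yet described was chr6:52170000-52179999 in HoxA (-7.13 points).

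Single tiles were tested with a quasi-binomial model of their call counts, with stage and strain as terms, fitted over all tiles of the genome. Calls required a Benjamini-Hochberg adjusted p below 0.05 together with 20 points or more between the stage means. By this rule 37 of the 609 Hox tiles fell in NT embryos (6.08%) and none rose. Over the genome 4.59% of tiles were called, 4.41% lower and 0.173% higher. HoxC had 16 called tiles (12%), HoxA 11 (6.92%), HoxD 7 (4.46%) and HoxB 3 (1.88%). The 37 tiles had a median of 52.8% in fibroblasts and 12.01% in NT embryos, a median difference of -32.4 points, and adjusted p values of 0.00618 to 0.0474. Both strain means were lower in 36 of them, and the stages did not overlap in 28. The tiles were picked for a stage difference in these same samples, so these counts only describe them. Over all Hox tiles, every embryo sample lay below every fibroblast sample in 82 (13.5%), against 11.9% of all tested tiles. The shares over all Hox tiles were near those of the genome. By cluster the share of called tiles was above that of the genome in HoxC and HoxA, near it in HoxD and below it in HoxB. Stages were apart in this way in 18.9% of HoxA, 16.5% of HoxC, 10% of HoxB and 8.92% of HoxD tiles. The exception among the 37 was chr6:52150300-52150399, singled out after its values were seen, which read 86.98, 92.4, 92.5 and 94.5% in fibroblasts and 49.4, 38.3, 89.6 and 100% in NT embryos.

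These calls depended on the fibroblast samples. Without fibroblast sample 1 no Hox tile was called and none in the whole genome. There, 147 Hox tiles had an unadjusted p under 0.05 in the quasi-binomial model, and the matching share of all tiles was not counted. With all samples 193 did (31.7%), against 27.3% of all tiles. The limma fit on arcsine levels with all samples called 26, beside 2.53% of all tiles. Fibroblast sample 1 is the sum of 2 libraries, 1 and 1a, which held 41466097 and 38676143 calls. It was thus the deepest sample, and the part of its depth in the loss of calls without it was not tested. With library 1a left out, 30 Hox tiles were called, 28 of them among the 37, beside 3.34% of all tiles. Without fibroblast samples 2, 3 and 4 the count was 5, 11 and 7, of which 5, 10 and 7 were among the 37. Calls dropped over the genome as well, to 0.516, 1.18 and 1.24% of tiles, against 4.59% with all samples. Leaving out embryo samples 1 and 2 gave 17 and 19 tiles, 11 and 14 of them among the 37, and leaving out embryo samples 3 and 4 gave 34 each time. Over the genome, 2.17 and 2.32% of tiles were called without embryo samples 1 and 2, and the shares without embryo samples 3 and 4 are not given here. Of the 17 tiles called without embryo sample 1, 16 were lower in NT embryos and 1 was higher, and of the 34 without embryo sample 4, 33 were lower and 1 was higher. With at least 20 calls in every sample, 21 of 475 Hox tiles were called, all among the 37, beside 3.19% of the tiles of the genome.

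**Figure D4:**
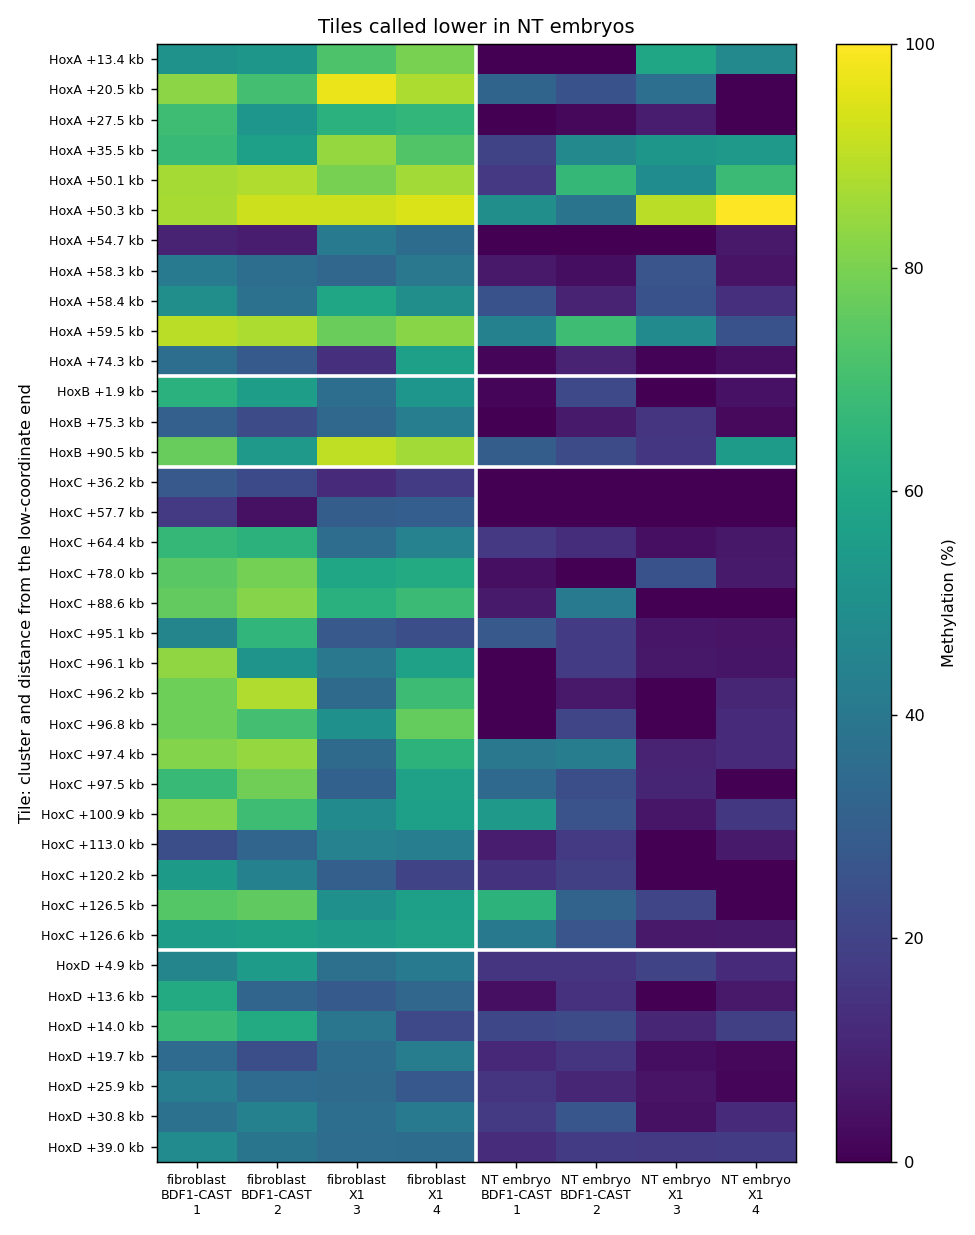
Methylation (%, colour scale) of the 37 Hox tiles called lower in NT embryos, 1 line of cells per tile in order along each cluster (kb from the low-coordinate end) and 1 column per sample. The 4 fibroblast columns at left are brighter than the 4 NT embryo columns for nearly all tiles, with the median going from 52.8 to 12.01%.

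Several HoxA tiles fell from high fibroblast levels. The tile chr6:52127500-52127599, with 9 CpGs and at least 25 calls per sample, read 69.1, 52.7, 63.9 and 66.2% in fibroblasts and 0, 2.08, 8 and 0% in NT embryos. It went from 62.98% ± 7.16 in fibroblasts to 2.52% ± 3.78 in NT embryos (SD, n = 4), and its adjusted p of 0.00618 was the smallest of the Hox tiles called. Further from Hoxa5, chr6:52120500-52120599 (4 CpGs) read 82.6, 70, 97.1 and 87.5% in fibroblasts and 32.4, 25, 36.4 and 0% in embryos, a difference of -60.9 points (adjusted p = 0.0202). Neither tile's stages overlapped, and both tiles lay on the Hoxa2 to Hoxa4 side of Hoxa5, 27035 and 34035 bp past its start. The tile chr6:52113400-52113499, a single CpG, read 50.8, 53.1, 72.1 and 80% in fibroblasts and 0, 0, 58.8 and 47.1% in embryos, so that both BDF1-CAST embryo samples were at 0 and both X1 embryo samples were not (adjusted p = 0.0444). Between these and Hoxa5, chr6:52135500-52135599 differed by -26.6 points and chr6:52150100-52150199 by -34.96. The tile next to the former, chr6:52135400-52135499, had a difference of -45.2 points but embryo values of 28.6, 4.35, 81.2 and 4.17%, and it was not called (adjusted p = 0.120). Without embryo sample 3 it was called, at -62.4 points (adjusted p = 0.0333).

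Around Hoxa6, which like Hoxa5 helps to pattern the vertebral column, 3 tiles fell. Centred 220 bp after its start, chr6:52158400-52158499 read 49.4, 37.7, 59.3 and 49.4% in fibroblasts and 25, 9.52, 25.2 and 13.8% in embryos (-30.6 points, adjusted p = 0.0218). The next tile, centred at 320 bp, read 41.2, 36, 32.99 and 39.8% and 6.78, 3.90, 26.5 and 5.26%, with embryo sample 3 above the rest (-26.9 points, adjusted p = 0.0348). Centred at -880 bp, upstream of the start, chr6:52159500-52159599 went from 84.2% ± 5.58 in fibroblasts to 46.4% ± 17.95 in NT embryos (adjusted p = 0.0215). Further on towards Hoxa13, chr6:52174300-52174399 read 36.2, 28.2, 13.3 and 56.6% in fibroblasts and 1.59, 9.48, 0.840 and 4.08% in embryos (-29.6 points).

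Differences of both signs lay close to the Hoxa5 start. The tile chr6:52154700-52154799, centred at -165 bp and so within the sequence printed above, read 10.1, 8, 40.98 and 35.2% in fibroblasts and 0, 0, 0 and 6.67% in embryos. It fell by 21.9 points (adjusted p = 0.0219) from a level that was higher in X1 fibroblasts. Past the start the embryo means were the higher ones. At 335 bp, chr6:52154200-52154299 read 17.2, 8.90, 40 and 16.5% in fibroblasts and 13.6, 18.9, 55.9 and 38.5% in embryos, and at 535 bp, chr6:52154000-52154099 read 6.71, 3.98, 17.1 and 13% and 0.602, 0, 38.6 and 58.5%. At chr6:52154000-52154099 both X1 embryo samples lay above, and both BDF1-CAST embryo samples below, every fibroblast sample. These were the largest positive differences in HoxA, at 11.1 and 14.2 points, and neither was called (adjusted p = 0.362 and 0.408). Single samples moved both. The first was 3.02 points without embryo sample 3 and 7.17 without fibroblast sample 2, but 17.1 without embryo sample 1 and 17.5 without fibroblast sample 3. The second was 2.85 without embryo sample 4, but 22.2 and 22.4 without embryo samples 1 and 2.

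In HoxC, most of the called tiles lay in the methylated stretch at the high-coordinate end. The largest fall of any Hox tile was at chr15:102841200-102841299, which read 77.9, 87.9, 34.5 and 68.4% in fibroblasts and 0, 6.67, 0 and 10.8% in NT embryos, from 67.2% ± 23.2 in fibroblasts to 4.37% ± 5.32 in NT embryos (adjusted p = 0.0280). Close by, chr15:102841800-102841899 read 77.8, 70.1, 50 and 76.3% and 0, 21.1, 0 and 11.8%, a difference of -60.4 points (adjusted p = 0.0222). All embryo samples lay below all fibroblast samples at both. The tile chr15:102833600-102833699 had 76.1, 81.8, 63.6 and 68.3% in fibroblasts and 7.14, 40.9, 0 and 0% in embryos, with both X1 embryo samples at 0 (-60.5 points, adjusted p = 0.0218). At chr15:102823000-102823099 the difference was -59.5 points, from 74.4, 79.2, 59.3 and 61.3% to 4, 0, 25 and 7.27%. These 4 tiles had 2 to 5 CpGs and 12 or 13 calls in their shallowest sample, so the embryo levels near 0 carry a wide counting error.

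Deeper tiles of the same stretch fell as well. The tile chr15:102842500-102842599, with at least 88 calls per sample, read 67.7, 78.1, 31.1 and 57.1% in fibroblasts and 34.1, 24.2, 10.2 and 0% in embryos (-41.4 points, adjusted p = 0.0245). The stages overlapped there, since X1 fibroblast sample 3 lay below BDF1-CAST embryo sample 1. At chr15:102871600-102871699, with at least 75 calls, the fibroblasts were closest together of all called Hox tiles, at 56.2, 56.7, 55.4 and 57.4%, and the embryos read 40.3, 26.3, 6.67 and 7.03% (-36.3 points, adjusted p = 0.0449). Its 4 embryo values split by strain, with a change of -23.1 points in BDF1-CAST and -49.5 in X1. The remaining called tiles from 102840100 to 102871500 were chr15:102840100-102840199 (-26.7 points), chr15:102841100-102841199 (-50.8), chr15:102842400-102842499 (-40.2), chr15:102845900-102845999 (-38.2), chr15:102858000-102858099 (-27.96), chr15:102865200-102865299 (-28.7) and chr15:102871500-102871599 (-34.6).

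Outside that stretch, 3 HoxC tiles fell. The tile chr15:102809400-102809499 read 66.7, 64.4, 35.7 and 44.4% in fibroblasts and 16.7, 13.04, 4.17 and 6.25% in embryos (-42.8 points, adjusted p = 0.00689). At chr15:102781200-102781299 and chr15:102802700-102802799 the fibroblasts had 28.1, 22.6, 12.2 and 17.4% and 17.02, 4.48, 29.4 and 29.8%, and no methylated call was seen in any embryo sample. The shallowest sample had 27 calls at the first and 25 at the second, where a count of 0 allows a level of up to 11.1 and 12% (3 calls of the total). Over the 43 values of 0 in the 24 tiles called or named here that hold one, with 10 to 200 calls each, this limit ran from 1.5 to 30%, and it covers counting error only. The largest positive differences in HoxC, 18.03 points at chr15:102796400-102796499 and 7.89 at chr15:102797300-102797399, had their highest value in X1 embryo sample 3 (53.3 and 38.1%) and were not called (adjusted p = 0.263 and 0.462). Without that sample the first difference was 7.06 points and the second -1.38.

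The 7 called HoxD tiles lay around the genes from Hoxd13 to Hoxd9, which are used in limb ends and genital tubercle. Centred 581 bp past the Hoxd12 start, chr2:74513600-74513699 read 60.99, 32.8, 28.4 and 32.9% in fibroblasts and 4, 14.3, 0 and 6.94% in embryos (-32.4 points, adjusted p = 0.0235). At 981 bp, chr2:74514000-74514099 read 67.3, 61.3, 39.3 and 22.2% and 21.8, 23.1, 10.9 and 19.05% (-28.8 points, adjusted p = 0.0116), with X1 fibroblast sample 4 below embryo sample 2. The stages were thus apart at the former tile and overlapped at the latter. The deepest of the 7, chr2:74525900-74525999 with 151 to 388 calls and 8 CpGs, read 42.8, 35.1, 34.6 and 27.5% and 14.9, 10.8, 5.24 and 1.76%, from 35% ± 6.25 in fibroblasts to 8.18% ± 5.82 in NT embryos (adjusted p = 0.00992). Upstream of Hoxd13, at -1331 bp, chr2:74504900-74504999 read 45.3, 55.4, 37.04 and 40.7% in fibroblasts and 15.1, 15.4, 20.7 and 12.3% in embryos (-28.8 points, adjusted p = 0.0236).

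Smaller falls in HoxD were at chr2:74519700-74519799 (-26.01 points, centred at -629 bp from the Hoxd11 start), chr2:74530800-74530899 (-24.4 points, 903 bp past the Hoxd10 start) and chr2:74539000-74539099 (-23.4 points, 3231 bp past the Hoxd9 start). Stages did not overlap in these 3 tiles. Past Hoxd11, chr2:74521700-74521799 had embryo values of 0, 4.04, 0 and 35.96% against 34.7, 50.7, 34.7 and 38.5% in fibroblasts, where embryo sample 4 stood apart from the other embryos, and it was not called (adjusted p = 0.201). Without that sample it was called, at -38.3 points (adjusted p = 0.0194). The largest positive differences, 17.9 points at chr2:74566300-74566399 and 13.6 at chr2:74566500-74566599, lay 16301 and 16501 bp past the Hoxd3 start and were not called (adjusted p = 0.236 and 0.206). The first was 7.95 points without embryo sample 4. The second was 6.72 without embryo sample 1 and 21.2 without embryo sample 4.

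HoxB had few called tiles and the largest positive difference. At chr11:96140500-96140599 the fibroblasts read 76.7, 54.2, 90.2 and 86.2% and the embryos 29.6, 23.3, 15.8 and 55% (-45.9 points, adjusted p = 0.0331). At chr11:96051900-96051999, near the Hoxb13 end, fibroblasts read 63.7, 55.9, 36.2 and 52.5% and embryos 1.80, 22.2, 0 and 5% (-44.8 points, adjusted p = 0.0174). The stages overlapped at the first of these, through X1 embryo sample 4, and not at the second. The third tile, chr11:96125300-96125399, read 30.8, 22.8, 33.3 and 42.9% and 0, 7.14, 15.4 and 2.50% (-26.2 points, adjusted p = 0.0232). A single CpG at chr11:96088500-96088599 was at 90, 90.3, 91.7 and 92.98% in fibroblasts and split by strain in embryos, at 18.8, 20, 100 and 64.7% (adjusted p = 0.0849, not called). Without embryo sample 3 it was called, at -56.8 points (adjusted p = 0.0190). X1 embryos were also the higher ones at chr11:96206900-96206999, with 8 CpGs and at least 48 calls. Fibroblasts there read 3.46, 5.91, 7.38 and 8.63% and embryos 0, 15.2, 63.2 and 62.5%, a difference of 28.9 points that was not called (adjusted p = 0.0663). Without embryo sample 1 it was 40.6 points and called (adjusted p = 0.0343). A further tile, chr11:96188000-96188099, read 17.7, 16.1, 29.9 and 10.3% and 56.2, 0, 46.2 and 62.96%, with embryo sample 2 at 0 and the others above every fibroblast sample (adjusted p = 0.164). Its difference of 22.8 points was 36.6 without that sample.

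At the placed promoters, levels were low in both stages except at Hoxa5, Hoxd12, Hoxa6 and Hoxd10. Values here are over the placed 300 bases. The Hoxd12 promoter read 33.5, 35.8, 27.7 and 29.7% in fibroblasts (31.7% ± 3.62, SD, n = 4) and 23.7, 32.6, 2.25 and 1.93% in embryos (15.1% ± 15.5), over at least 132 calls per sample. BDF1-CAST embryos differed from their fibroblasts by -6.48 points and X1 embryos by -26.6. The Hoxa5 promoter read 10.8, 12.5, 48.5 and 31.01% and 0, 6.86, 16.7 and 22.8%, from 25.7% ± 17.7 in fibroblasts to 11.6% ± 10.1 in NT embryos, and X1 samples were the higher ones in each stage. The Hoxa6 promoter read 17, 15.3, 11.97 and 11.3% and 1.84, 12.03, 3.41 and 1.68%, from 13.9% ± 2.71 in fibroblasts to 4.74% ± 4.92 in NT embryos, with embryo sample 2 reaching above the X1 fibroblasts. Hoxd10 read 7.36, 5.62, 19.3 and 12.3% and 4.13, 10.7, 8.89 and 8.57%, with overlap of the stages. The other 7 (Hoxa11, Hoxa13, Hoxd13, Hoxd11, Hoxd9, Hoxd3 and Hoxd1) had stage means of 0.974 to 5.55%. The Hoxd11 promoter, printed above beside Hoxd12, read 2.03, 1.06, 5.53 and 4.31% in fibroblasts and 1.59, 0.664, 7.02 and 4.61% in embryos over at least 299 calls. Of the 11 promoters, only that of Hoxa5 overlapped a tile called between the stages.

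None of the 609 Hox tiles was called for strain (0.0179% of all tiles were) and none for a stage change that differed between strains (0% of all tiles). The smallest adjusted p was 0.0923 for strain and 0.253 for the product of stage and strain in the quasi-binomial model. At an unadjusted p under 0.05 there were 138 Hox tiles for strain (22.7%, against 15.8% of all tiles) and 84 for the product (13.8%, against 8.68%). The limma fit on arcsine levels also called none for strain, with 110 tiles at an unadjusted p under 0.05, and none for the product, with 60.

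The same held for 10 kb windows. None of the 47 was called for strain (0.0147% of all windows were), with 17 at an unadjusted p under 0.05 and a smallest adjusted p of 0.0803 in limma, and none for the product (0% of all windows), with 8 and 0.181. Over the genome, 27.3% of windows had an unadjusted limma p under 0.05 for strain and 12.4% for the product. Strain differences had mostly the same sign in both stages. Across the 47 windows the X1 minus BDF1-CAST difference in fibroblasts and that in NT embryos correlated at r = 0.823 (Spearman's rho = 0.732), and 37 of 47 had the same sign. These are descriptions, since windows of a sample share a library and its depth. Over the 33899 windows of the genome r was 0.412, and 69.8% had the same sign. Embryo X1 samples were both higher than the BDF1-CAST ones in 21 Hox windows and both lower in 8, shares of 44.7% and 17.0% against 40.6% and 15.8% of all windows.

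For each cluster, the window whose X1 and BDF1-CAST changes lay furthest apart is described. The X1 change minus the BDF1-CAST change was positive in those of HoxB and HoxA and negative in those of HoxC and HoxD. In HoxB, chr11:96200000-96209999 read 7.40, 5.79, 23.5 and 21.8% in fibroblasts and 7.18, 5.59, 44.1 and 55.3% in embryos, so that X1 was higher in both stages (adjusted p of the product = 0.181 in limma). In HoxA, chr6:52110000-52119999 read 19.1, 18.02, 29.7 and 32.5% and 1.94, 2.06, 32.5 and 24.6%, with BDF1-CAST embryos near 2% and X1 embryos near their fibroblasts (adjusted p = 0.181). In HoxC, chr15:102850000-102859999 read 50.5, 53.5, 41.7 and 46.4% and 58.5, 41.9, 12.8 and 17.3%, where X1 embryos were the low ones and BDF1-CAST embryos lay about their fibroblasts (adjusted p = 0.235). In HoxD, chr2:74510000-74519999 around Hoxd12 read 40.5, 33.5, 28.8 and 34.6% and 22.2, 29.9, 7.97 and 6.49%, again with X1 embryos the lowest (adjusted p = 0.243). X1 libraries covered 1376884 to 1596888 CpGs and BDF1-CAST libraries 1746590 to 1886972, so library coverage and strain cannot be told apart.

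**Figure D5:**
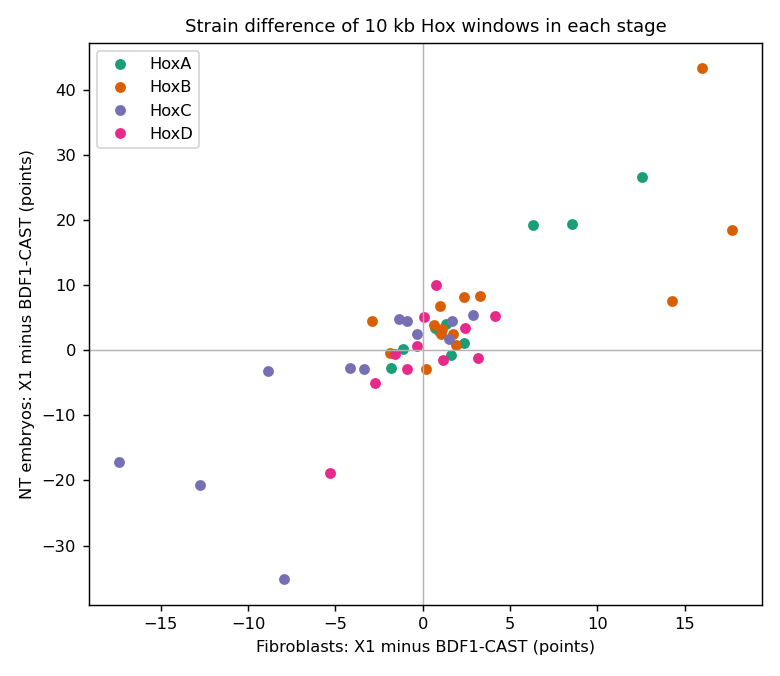
X1 minus BDF1-CAST difference in methylation (percentage points) of each 10 kb Hox window in fibroblasts (horizontal axis) and in NT embryos (vertical axis), coloured by cluster. Of the 47 points, 37 have the same sign on both axes (r = 0.823), and the embryo differences run from -35.2 points in a HoxC window to 43.3 in a HoxB window.

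Depth differed between the stages and bears on the precision of these values. Fibroblast libraries held 35442175 to 41466097 calls and NT embryo libraries 25239364 to 30396273. The fibroblast sample summed from libraries of 41466097 and 38676143 calls was the deepest sample. The median Hox tile had 92 to 218 calls among fibroblast samples and 69 to 85 among embryo samples. Whether the samples of a group were separate animals or cultures is not stated, so the p values reflect only the variation among these libraries, some of which may be technical. No molecular identifiers are mentioned either, and calls are therefore not counts of molecules.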

How the data were processed

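Reduced representation bisulfite libraries of 9 samples as deposited were used, of which fibroblast libraries 1 and 1a (a resequencing, r = 0.961 over 1085568 CpGs) were summed, leaving 8 samples. The authors deposited, per the file headers, counts of calls and of methylated calls for each CpG. Positions are on mm9 per the submitters' processing notes, and whether they start at 0 or 1 was not stated. Aligner and caller: not given in the sources used here. The authors also deposited methylation of 100 bp tiles as a fraction and a CpG density score. The fractions served as a check (at least 99.3% of Hox tiles within 0.001), and 19 columns of joined libraries or other samples were not used.

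Calls were summed in tiles of 100 bp with at least 10 calls in every sample. A quasi-binomial logistic model with stage and strain was fitted to each of 279699 tiles, the dispersion was moderated with squeezeVar of limma 3.58.1 (R 4.3.3) with a floor of 1, and p values were adjusted by Benjamini-Hochberg over all tiles. Calls needed an adjusted p under 0.05 and 20 points. Windows of 10 kb used limma on mean arcsine square root levels and were added with the data in view. The tile fit was also checked on simulated calls with known stage changes, no strain difference and the same spread setting for all tiles. Other steps used Python 3.11.15.

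Promoters were placed on mm9 by CpG spacing, with at least 7 CpGs matched and every covered CpG in the 300 bases explained. The mm9 genome and gene annotation were not used here. Tiles named are the 30 called tiles with the largest differences and, per cluster, the 3 largest falls and 2 largest rises. The 7 other called tiles, and the windows and promoters described, were picked after their values were seen. The Hox clusters, this rule and the tests were chosen with earlier results of these data known. Alternatives covered the minimum calls, tile size, weighting, library 1a, covariates, a replicate block, limma in place of the quasi-binomial model, the minimum difference, and leaving out each sample.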

Additional observations from a re-analysis of the deposited data

Results flagged for a closer look

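Among 150 groups of 4 samples (75 clusters, named tiles, placed promoters and windows called for stage or with an unadjusted p under 0.05 for the product of stage and strain, in each stage), 9 had a sample standing far apart from the others by Dixon's 95% critical value, where chance gives about 1 in 20, or 7.5. In HoxD, fibroblast sample 1 was at 61.0% at chr2:74513600-74513699 (others 28.4 to 32.9%), past the Hoxd12 start. Also in HoxD, X1 embryo sample 4 was at 36.0% at chr2:74521700-74521799 (others 0 to 4.04%) and at 70.3% at chr2:74566300-74566399 (others 29.5 to 31.6%), and X1 fibroblast sample 3 at 41.7% at chr2:74566500-74566599 (others 21.9 to 25%). In HoxA, X1 embryo sample 3 was at 26.5% at chr6:52158300-52158399 (others 3.90 to 6.78%). In HoxC, at chr15:102797300-102797399, sample 3 stood apart in both stages, at 8.33% in fibroblasts (others 0 to 1.22%) and 38.1% in embryos (others 0 to 3.03%). BDF1-CAST embryo sample 2 was at 12.03% at the Hoxa6 promoter (others 1.68 to 3.41%) and at 3.90% at the Hoxd1 promoter (others 0.671 to 1.13%).

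In 3 of the places examined, every X1 embryo sample lay above, and every BDF1-CAST embryo sample below, the mean of the fibroblasts of its own strain. The X1 change exceeded the BDF1-CAST change by 38.5 points at chr6:52154000-52154099, past the Hoxa5 start, where the tile's product term was not called (adjusted p = 0.284 in the quasi-binomial model). It did so by 9.33 points in the HoxD window chr2:74550000-74559999, which holds the Hoxd3 start (adjusted p = 0.390 in limma). At the Hoxa11 promoter it was 5.83 points, and that difference was not tested. The HoxC window chr15:102750000-102759999, singled out after its values were seen and not among the places examined, did the same, by 6.19 points (adjusted p = 0.477 in limma).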

How the results depend on the processing

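Against 37 Hox tiles called between the stages, 21 were called at 20 calls per tile and 0 to 34 when each sample was left out. With a replicate block in place of strain 0 were called, and 0 in the genome. With that block 150 Hox tiles had an unadjusted p under 0.05 in the quasi-binomial model, and the matching share of all tiles was not counted. The other settings gave 26 (limma) to 55 (no minimum difference), and tiles 10 times as long gave 34 of 216. Over the genome, 2.53% of tiles were called with limma, 5.84% with no minimum difference and 14.6% with the longer tiles. In a look for pairs between the stages, same-numbered samples correlated at 0.111, 0.127, 0.196 and 0.0427. Within strain the values were -0.0278 for numbers 1 and 2 and 0.0122 for numbers 3 and 4. Only number 3 matched itself best, while 1 matched 2, 2 matched 1 and 4 matched 3. The numbers were therefore not taken as pairs, and these correlations served only that purpose. HoxC's difference of -9.09 points was -6.75 with tiles weighted by calls and -5.20 over single CpGs, and HoxD's -4.29 was -3.04 and -2.77. Leaving out samples moved HoxA between -7.70 and -5.01, HoxB between -3.23 and -0.774, HoxC between -10.05 and -8.43 and HoxD between -4.69 and -3.78. The change of tiles at 20 to 60% was -17.4 at 5 calls, and that of tiles at 60 to 100% was -30.9 at 20 calls. Called 10 kb windows ranged from 8 to 17 of 47 over left-out samples. The count of 8, without fibroblast sample 1, stood beside 2747 of the 33899 windows of the genome. The HoxC tile chr15:102797300-102797399 had a difference of 7.89 points that turned to -1.38 without NT embryo replicate 3 and ranged up to 11.3 without another sample. Counts for strain and for the product of stage and strain were 0 under each alternative run. For these shifts the cause was not tested. Where a sample was left out, a single sample of its strain remained in that stage, assumed to vary like the others. The strain term was shared by both stages. Calls per tile, lower in NT embryos, limit the precision of single tiles.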
